A study of Mus musculus with 6 samples.

Results

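The genes described are Hmgcs1, Idi1, Fdft1, Sqle, Cyp51 and Dhcr7, which encode enzymes of cholesterol synthesis, and Insig1, which encodes a sterol-dependent inhibitor of that pathway. They were taken by name from the count tables, after matching Ensembl identifiers to mouse symbols. All 7 were among the 38355 genes listed and among the 17120 that passed the filter on low counts. RNA was sequenced from whole cortical hemispheres of C57BL/6 mice, an inbred wild-type strain, in 3 samples of 6-month-old and 3 samples of 16-month-old animals. The labels name no treatment and no engineered allele in either age group, and the comparison asks which transcripts differ between the adult and the aged cortex. Libraries were made from polyadenylated RNA and read in pairs on a HiSeq 2000. The housing protocol gives the younger age as 3 months, whereas all other labels and the study give 6 months, the age used here.

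Cholesterol is built from acetyl-CoA through mevalonate, isoprenoid units, squalene and lanosterol. The brain makes nearly all of its own cholesterol, because lipoproteins of the blood do not pass the blood-brain barrier, and it uses cholesterol mainly in myelin and in the membranes of neurons and glia. The genes of the pathway share transcriptional control by SREBP, a membrane-bound factor that the escort protein Scap carries to the Golgi for cleavage when sterols are scarce. Insig proteins hold this complex in the endoplasmic reticulum when sterols are plentiful. Insig1 is itself a target of SREBP. Cleaved SREBP binds sterol regulatory elements, usually next to sites of the general factors NF-Y and Sp1.

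The promoter windows of Hmgcs1 and Insig1 are printed because these genes had the largest positive and the largest negative difference between the ages among the 7. Each window was taken from RefSeq (GRCm38.p6) and runs from 250 bases before to 50 bases after the annotated start, 5′ to 3′ on the strand of the gene. The Hmgcs1 window is chr13:119690101-119690400 and the Insig1 window is chr5:28071162-28071461, both on the plus strand. Capitals mark matches, on either strand, to the sterol regulatory element as TCACNCCA or as CACCNCAC, to the NF-Y box CCAAT, and to the Sp1 box GGGCGG.

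Hmgcs1 promoter: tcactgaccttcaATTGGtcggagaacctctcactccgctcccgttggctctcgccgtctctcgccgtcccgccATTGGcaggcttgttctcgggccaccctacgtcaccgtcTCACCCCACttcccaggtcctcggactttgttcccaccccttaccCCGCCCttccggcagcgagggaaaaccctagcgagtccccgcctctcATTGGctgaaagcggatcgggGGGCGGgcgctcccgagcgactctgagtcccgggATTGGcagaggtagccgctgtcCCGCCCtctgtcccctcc
Insig1 promoter: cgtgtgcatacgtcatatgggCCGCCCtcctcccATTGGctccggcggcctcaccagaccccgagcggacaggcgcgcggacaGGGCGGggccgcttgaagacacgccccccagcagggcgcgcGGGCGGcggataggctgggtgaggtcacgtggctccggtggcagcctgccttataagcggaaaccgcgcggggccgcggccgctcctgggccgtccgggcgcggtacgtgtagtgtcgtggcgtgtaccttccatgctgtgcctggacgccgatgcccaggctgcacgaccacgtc

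In the Hmgcs1 window both forms of the sterol regulatory element matched, as TCACCCCA 137 bases before the start and as the overlapping CACCCCAC 136 bases before it. The same window held 4 NF-Y boxes and 3 Sp1 boxes. The Insig1 window held 1 NF-Y box, 3 Sp1 boxes and no match to either form of the sterol regulatory element, which says only that these letters are not in this stretch. RefSeq windows were at hand for 5 of the 7 genes (7 windows, 3 of them of Dhcr7), with none for Fdft1 and Sqle. NF-Y boxes were present in 5 of the 7 windows and Sp1 boxes in 6, against 37.4% and 35.7% of all 32851 windows of this length. Each form of the sterol regulatory element was present in 1 of the 7 windows, that of Hmgcs1, against 4.36% (TCACNCCA) and 6.32% (CACCNCAC) of all windows. A match to a motif describes the letters and is not a measured binding site.

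Counts on genes summed to 29797253 in the shallowest and 46519280 in the deepest sample, and a gene with 3 counts would stand at 0.0640 to 0.0999 counts per 1000000 (CPM). Levels are given as CPM after TMM scaling, whose factors were between 0.988 and 1.01. Log2 fold changes are 16 over 6 months, and adjusted P values are from the quasi-likelihood test of edgeR over all 17120 genes with the Benjamini-Hochberg correction. This test called 286 genes at an adjusted P under 0.05, 134 higher and 152 lower at 16 months, which is 1.67% of the genes tested. Samples of the same age were more alike at 6 months than at 16 months, where the deviation of a sample from the mean of its age followed the GC content of the genes, with r = 0.59 across genes in replicate 1 and r = −0.58 in replicate 2, against −0.13 to 0.16 in the other 4 samples. The study counts the samples of each age as separate brains, which the labels do not state, and P values measure the spread between these samples. In tissue RNA, fewer cells of a type and less RNA per cell cannot be told apart.

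None of the 7 genes was called by edgeR, against a background of 1.67%. Hmgcs1 and Dhcr7, both with higher means at 16 months, had an unadjusted P under 0.05, as 17.4% of all tested genes did. DESeq2's Wald test called 1 of the 7, Hmgcs1, where it called 2.61% of all genes. In 5 genes the log2 fold change was positive and in 2 negative, with a median of 0.044 beside 0.0014 over all tested genes. The 3 samples of 16 months all lay above the 3 of 6 months in Hmgcs1, Sqle and Dhcr7, as in 12.2% of all tested genes. They all lay below in Insig1, as in 11.5% of all tested genes. With the offsets for GC content and length described below, the ages of Sqle overlapped.

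**Figure D1:**
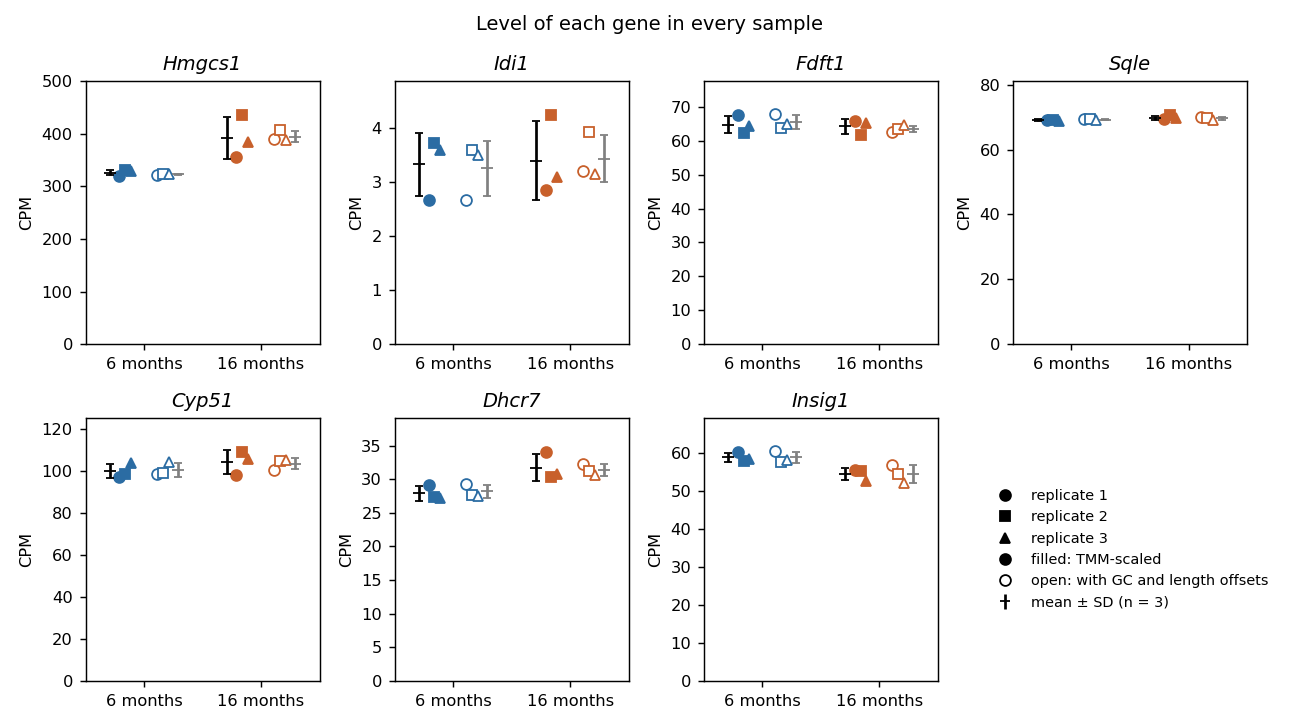
Level of each of the 7 genes in CPM (vertical axis, starting at 0) in the 3 samples of 6 months (blue) and the 3 samples of 16 months (orange), with 1 symbol shape per replicate, filled points after TMM scaling, open points with offsets for GC content and length, and lines for the mean and SD of each kind (black and grey). The filled aged points of Hmgcs1, between 357 and 435 CPM, and of Dhcr7, between 30.3 and 34.0 CPM, lie above the adult ones, those of Insig1 lie below, and those of Idi1, Fdft1 and Cyp51 overlap the adult ones.

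Hmgcs1 encodes the cytosolic HMG-CoA synthase, which joins acetoacetyl-CoA and acetyl-CoA at the entry to the mevalonate pathway. The gene lies on chromosome 13 of GRCm38 from 119690379 to 119708260 on the plus strand. Its level was 320, 330 and 329 CPM in replicates 1, 2 and 3 at 6 months, and 357, 435 and 385 CPM at 16 months. All aged samples were above all adult samples, with replicate 2 of 16 months the highest and replicate 1 the closest to the adult level. The means were 326 ± 5.40 CPM (SD, n = 3) and 392 ± 39.8 CPM (SD, n = 3), a log2 fold change of 0.27 (SE 0.071, 95% interval 0.11 to 0.42) or 1.20-fold. The difference did not pass the test across all genes (unadjusted P = 0.00383, edgeR adjusted P = 0.0977). The coefficient of variation was 1.66% at 6 months and 10.1% at 16 months. Of the exon bases of Hmgcs1, 12.1% overlap the antisense transcript Gm48342, and no near-identical copy was found.

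The call for Hmgcs1 changed with the fit. With offsets that removed the sample-wise trends with GC content and transcript length, its level was 322, 324 and 324 CPM at 6 months and 389, 407 and 388 CPM at 16 months. Its log2 fold change was then 0.29 (SE 0.028, 95% interval 0.23 to 0.35) with an edgeR adjusted P of 2.15e-05, in a fit that called 13.9% of all tested genes. When replicate 1 of 16 months was left out, the log2 fold change was 0.33 (edgeR adjusted P = 0.00175, 5.73% of all genes called), and when replicate 2 of that age was left out it was 0.18 (edgeR adjusted P = 0.0313, 12.7% called). With no filter on low counts it was 0.26 (edgeR adjusted P = 0.0226, 2.35% called). Leaving out any of the other 4 samples gave no call. DESeq2 size factors in edgeR, upper quartile scaling, at least 10 counts in every sample and the robust fit gave none either. Their edgeR adjusted P was between 0.0983 and 0.113. With the replicate number as a term in the model, edgeR called 1 of the 7 genes, Hmgcs1, beside 4.57% of all genes, and with this term and the offsets it called Hmgcs1, Dhcr7 and Insig1, beside 18.3%. The log2 fold change of Hmgcs1 was positive in all 15 alternatives, and the gene was called in 7 of them and not in 8.

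Idi1 encodes isopentenyl diphosphate isomerase, which interconverts the activated isoprene units. It lies on chromosome 13 from 8885501 to 8892451 on the plus strand. Its level was 2.67, 3.73 and 3.60 CPM at 6 months and 2.87, 4.24 and 3.10 CPM at 16 months. Replicate 1 was the lowest sample of each age and replicate 2 the highest, and the ages overlapped. The log2 fold change was 0.044 (SE 0.175, 95% interval −0.35 to 0.43, edgeR adjusted P = 0.925), the widest interval of the 7 genes. Its counts were between 95 and 151 per sample. The value was −0.11 when replicate 1 of 6 months was left out and −0.14 when replicate 2 of 16 months was left out, so that no direction can be given. The annotation holds a processed pseudogene, Gm13502 on chromosome 2, that is identical to Idi1 over 684 bases, 22.6% of the transcript searched, and had 0 counts in every sample. Gm35570 on chromosome 5 is a further near-identical pseudogene and is not among the genes used here. Reads from these stretches match several places, and 9.21% of the exon bases of Idi1 overlap Gm48574 on the other strand. For the other 77.4% of the transcript no near-identical copy was found. How far these stretches change the counted level of Idi1 was not tested.

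Fdft1 encodes squalene synthase, the first enzyme committed to sterols, and lies on chromosome 14 from 63145150 to 63179578 on the minus strand. Its level was 67.5, 62.4 and 64.4 CPM at 6 months and 65.8, 61.7 and 65.4 CPM at 16 months. The ages overlapped, and the log2 fold change was −0.011 (95% interval −0.13 to 0.11, edgeR adjusted P = 0.940). The sign changed when replicate 1 of 6 months (0.019) or replicate 2 of 16 months (0.017) was left out. Of the Fdft1 transcript, 33.7% is nearly identical to the pseudogene Gm6781, which held 4 to 9 counts per sample, and 18.3% of the exon bases overlap Ctsb on the other strand.

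Sqle encodes squalene epoxidase, the oxygen-dependent enzyme that follows squalene and a second control point of the pathway, on chromosome 15 from 59315077 to 59331192 on the plus strand. Its level was 69.2, 69.1 and 68.7 CPM at 6 months and 69.4, 70.5 and 69.6 CPM at 16 months. The aged samples were all above the adult samples, but the 6 values lay within 1 narrow range, with SDs of 0.286 CPM at 6 months and 0.618 CPM at 16 months. Its log2 fold change was 0.018 (95% interval −0.088 to 0.12, edgeR adjusted P = 0.881). With the offsets for GC content and length the ages overlapped. The levels were then 69.3, 69.3 and 69.0 CPM at 6 months and 70.1, 69.6 and 69.1 CPM at 16 months.

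Cyp51 encodes lanosterol demethylase, the cytochrome P450 that starts the conversion of lanosterol, on chromosome 5 from 4081145 to 4104746 on the minus strand. Its level was 97.5, 98.7 and 104 CPM at 6 months and 98.3, 109 and 106 CPM at 16 months. Replicate 1 of 16 months fell within the adult range, and the other two aged samples lay above it. Between the means the log2 fold change was 0.060 (95% interval −0.069 to 0.19, edgeR adjusted P = 0.642). Of its exon bases, 3.76% overlap Akap9 on the other strand.

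Dhcr7 encodes the reductase that makes cholesterol from 7-dehydrocholesterol in the last step of the pathway. It lies on chromosome 7 from 143823145 to 143848410 on the plus strand. Its level was 29.2, 27.3 and 27.2 CPM at 6 months and 34.0, 30.3 and 30.8 CPM at 16 months. All aged samples were above all adult samples, and replicate 1 was the highest of each age. The means were 27.9 ± 1.10 CPM and 31.7 ± 2.04 CPM (SD, n = 3 each), which gave a log2 fold change of 0.18 (SE 0.065, 95% interval 0.037 to 0.33) or 1.14-fold. It did not pass the test (unadjusted P = 0.0192, edgeR adjusted P = 0.193). With the offsets for GC content and length its level was 29.3, 27.7 and 27.5 CPM at 6 months and 32.3, 31.3 and 30.5 CPM at 16 months, and the log2 fold change was 0.15 (SE 0.044, edgeR adjusted P = 0.0333). Without replicate 2 of 16 months Dhcr7 was called as well, with a log2 fold change of 0.21. No near-identical copy of Sqle, Cyp51 or Dhcr7 was found.

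Insig1, the inhibitor, lies on chromosome 5 from 28071363 to 28078662 on the plus strand. Its level was 60.2, 58.0 and 58.3 CPM at 6 months and 55.6, 55.1 and 52.6 CPM at 16 months. All aged samples were below all adult samples, and Insig1 was the only one of the 7 genes with this order. The means were 58.8 ± 1.21 CPM and 54.4 ± 1.63 CPM (SD, n = 3 each), which gave a log2 fold change of −0.11 (SE 0.052, 95% interval −0.23 to 0.0029). It did not pass the test (unadjusted P = 0.0549, edgeR adjusted P = 0.297). With the offsets the log2 fold change was also −0.11 (edgeR adjusted P = 0.0799). Of the transcript, 7.01% is nearly identical to Gm37784, which is not among the genes used here.

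Per kilobase of exon, the levels of the 7 genes at 6 months ran from 71.1 CPM per kb in Hmgcs1 to 0.951 CPM per kb in Idi1. Between these lay Cyp51 with 22.7, Insig1 with 19.0, Fdft1 with 15.3, Sqle with 12.4 and Dhcr7 with 4.80 CPM per kb. Hmgcs1 was the highest and Idi1 the lowest of all 21 synthesis enzymes on this scale. The length used is the union of all annotated exons, so a gene with long alternative exons is placed too low.

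**Figure D2:**
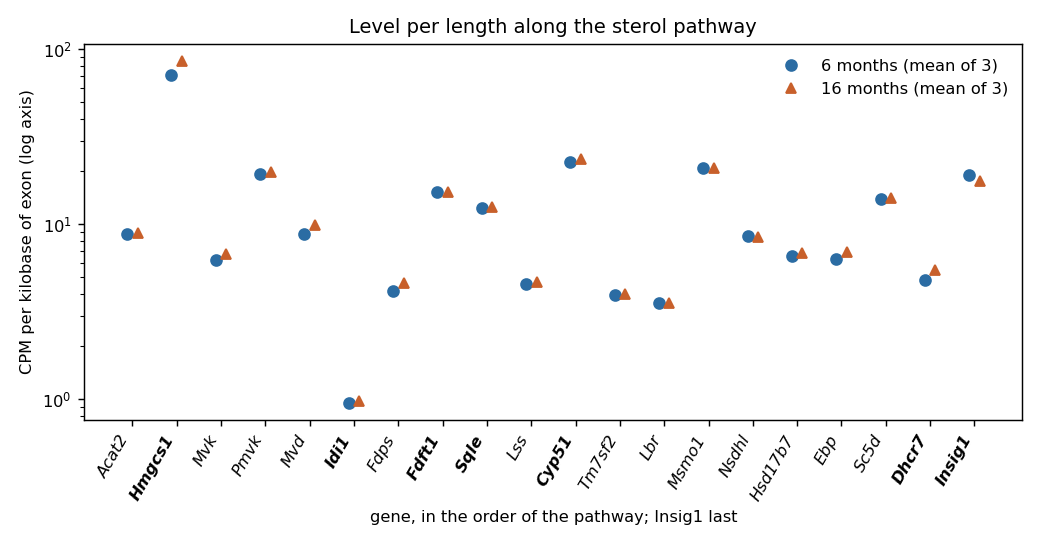
Mean level of 19 of the 21 enzymes, in the order of the pathway, and of Insig1 as CPM per kilobase of exon (vertical log axis) at 6 months (circles) and 16 months (triangles), with the 7 genes in bold. Hmgcs1 stands highest at 71.1 CPM per kb at 6 months and Idi1 lowest at 0.951 CPM per kb.

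The other 15 enzymes of the pathway had log2 fold changes from −0.025 to 0.16. None of the 15 was called by edgeR, DESeq2 or any other alternative, where edgeR called 1.67% and DESeq2 2.61% of all genes. Only 1, Fdps, had an unadjusted P under 0.05, beside 17.4% of all genes. Among the 15, 13 had a positive and 2 a negative log2 fold change, with a median of 0.045. The ages lay apart upwards in 3 (Fdps and Lss among them), beside 12.2% of all genes, and downwards in 0, beside 11.5%. With the offsets for GC content and length the ages of Lss overlapped. Fdps, which makes farnesyl diphosphate, had the smallest P of the 15, with 17.4 ± 0.711 and 19.4 ± 0.727 CPM (SD, n = 3 each) and a log2 fold change of 0.16 (edgeR adjusted P = 0.239). Of the exon bases of Fdps, 26.7% overlap Gm43738 on the same strand. Nsdhl, which acts in the removal of the methyl groups of lanosterol, had the smaller P of the 2 negative enzymes, with a log2 fold change of −0.025 (edgeR adjusted P = 0.859).

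Over all 21 enzymes, 6 of the 7 genes and these 15, the log2 fold change was positive in 18 and negative in 3. The median was 0.045, beside 0.0014 over all tested genes, and edgeR called 0 of the 21. Signs of genes in the same 6 libraries are not independent of each other. In all 21 the 95% interval lay within 0.5 of 0 on the log2 scale. The highest upper bound, 0.43, and the lowest lower bound, −0.35, both belonged to Idi1.

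**Figure D3:**
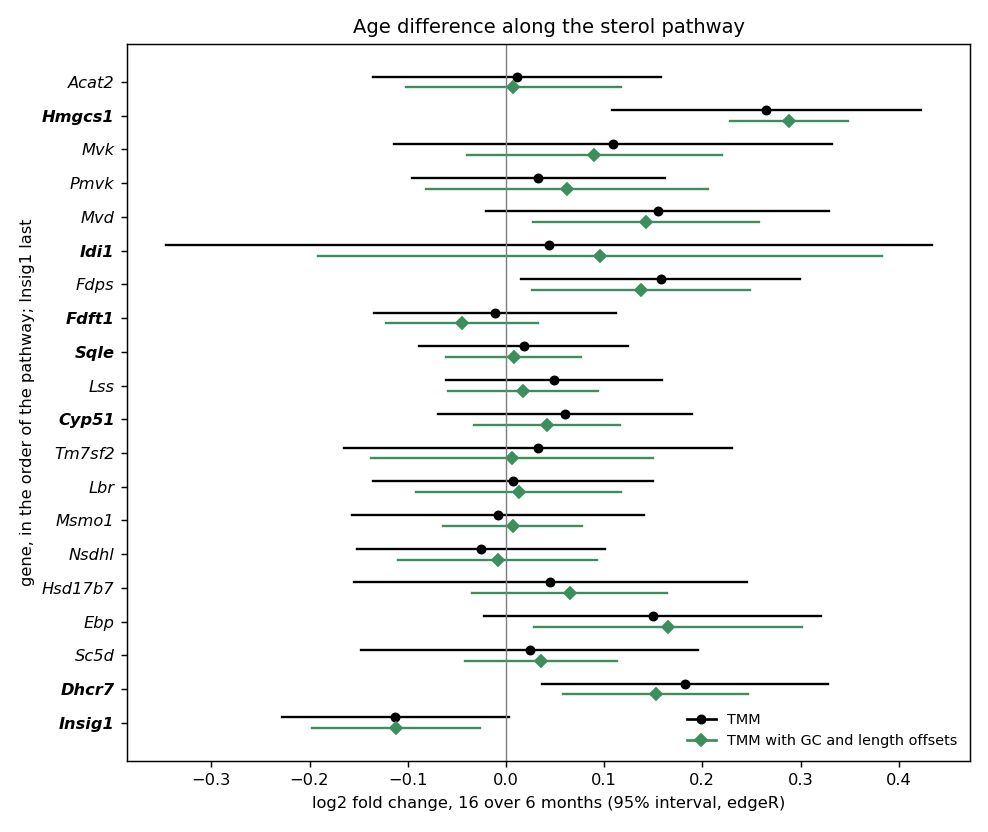
Log2 fold change, 16 over 6 months, with its 95% interval (horizontal axis) for 19 of the 21 enzymes in the order of the pathway and Insig1, after TMM scaling (black circles) and with offsets for GC content and length (green diamonds). Many points lie between 0 and 0.1, Hmgcs1 lies farthest to the right at 0.27 and Insig1 farthest to the left at −0.11.

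Among 13 genes that regulate SREBP, edgeR and DESeq2 called 0, beside 1.67% and 2.61% of all genes. At such shares, 0 calls in lists this short is no result about them. An unadjusted P under 0.05 was found in 2, Nfya among them, beside 17.4% of all genes. Of the 13, 7 had a positive and 6 a negative log2 fold change, with a median of 0.0021. Srebf2, which encodes the SREBP isoform that drives sterol genes, stood at 234, 217 and 218 CPM at 6 months and 262, 196 and 224 CPM at 16 months. Its aged samples lay on both sides of the adult ones, and the log2 fold change was 0.028 (edgeR adjusted P = 0.905). Scap, the escort, had a log2 fold change of 0.0078 (edgeR adjusted P = 0.975). For both genes the sign was opposite with the offsets for GC content and length, at −0.035 and −0.045, so no direction is given.

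Insig2, the paralog of Insig1, stood at 55.6, 60.5 and 58.2 CPM at 6 months and 57.05, 64.0 and 57.7 CPM at 16 months. The ages overlapped, and the log2 fold change was 0.037 (95% interval −0.10 to 0.18, edgeR adjusted P = 0.804). Whether the difference between the ages was itself different in Insig1 and Insig2 was not tested. Nfya, a subunit of the NF-Y factor, had 28.6 ± 0.916 CPM at 6 months and 33.5 ± 0.249 CPM at 16 months (SD, n = 3 each). All its aged samples were above all adult samples, and the log2 fold change was 0.23 (SE 0.054, edgeR adjusted P = 0.0736). Srebf1, the isoform that mainly serves fatty acid genes, had 52.4 ± 4.36 and 46.3 ± 7.23 CPM, with overlapping ages and a log2 fold change of −0.18 (edgeR adjusted P = 0.418). With the offsets, edgeR called 3 of the 13, with Nfya among the 2 that were higher and Srebf1 lower.

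The genes of sterol uptake and transport inside the cell showed both signs. None of 15 was called by edgeR or DESeq2, beside 1.67% and 2.61% of all genes. In 4 the unadjusted P was under 0.05, 2 in each direction, beside 17.4% of all genes. Gramd1b, which moves cholesterol from the plasma membrane to the endoplasmic reticulum, had 295 ± 6.68 and 327 ± 2.85 CPM (SD, n = 3 each) and a log2 fold change of 0.15 (edgeR adjusted P = 0.155). With the offsets, edgeR called 5 of the 15, with 4 lower, Stard4, Gramd1a and Gramd1c among them, and Lipa, the lysosomal acid lipase, higher.

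In fatty acid synthesis, which shares acetyl-CoA and SREBP with the sterol pathway, all 12 genes had a positive log2 fold change. Their median was 0.11, beside 0.0014 over all tested genes. The smallest log2 fold change was 0.0037 in Scd1, which had −0.027 with the offsets for GC content and length, so the sign was not uniform there. None was called by edgeR or DESeq2, beside 1.67% and 2.61% of all genes. In 4 the unadjusted P was under 0.05, beside 17.4% of all genes, and in 4 the ages lay apart upwards, beside 12.2%. Fads2, the delta-6 desaturase of polyunsaturated fatty acids, had the smallest P, with 82.3 ± 2.84 and 95.6 ± 8.21 CPM (SD, n = 3 each) and a log2 fold change of 0.22 (SE 0.068, edgeR adjusted P = 0.149). With the offsets, Acly, Elovl5, Fads1 and Fads2 were called, all higher.

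Of 13 genes of sterol efflux, esterification and hydroxylation, edgeR and DESeq2 called 0, beside 1.67% and 2.61% of all genes. In each direction 1 had an unadjusted P under 0.05, beside 17.4% of all genes in either direction. Cyp7b1, an oxysterol hydroxylase, stood at 14.0 ± 0.539 and 16.6 ± 1.51 CPM (SD, n = 3 each), which gave a log2 fold change of 0.24 (edgeR adjusted P = 0.161). Cyp27a1, the mitochondrial sterol hydroxylase, stood at 6.08 ± 0.229 and 4.93 ± 0.325 CPM (SD, n = 3 each), which gave a log2 fold change of −0.30 (edgeR adjusted P = 0.125). With the offsets, Cyp46a1, the neuronal enzyme that turns cholesterol over, and Cyp7b1 were called higher, and Cyp27a1 and Abca1 lower. The share of all genes that the offset fit calls is 13.9%, and the calls in each list stand beside it.

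**Figure D4:**
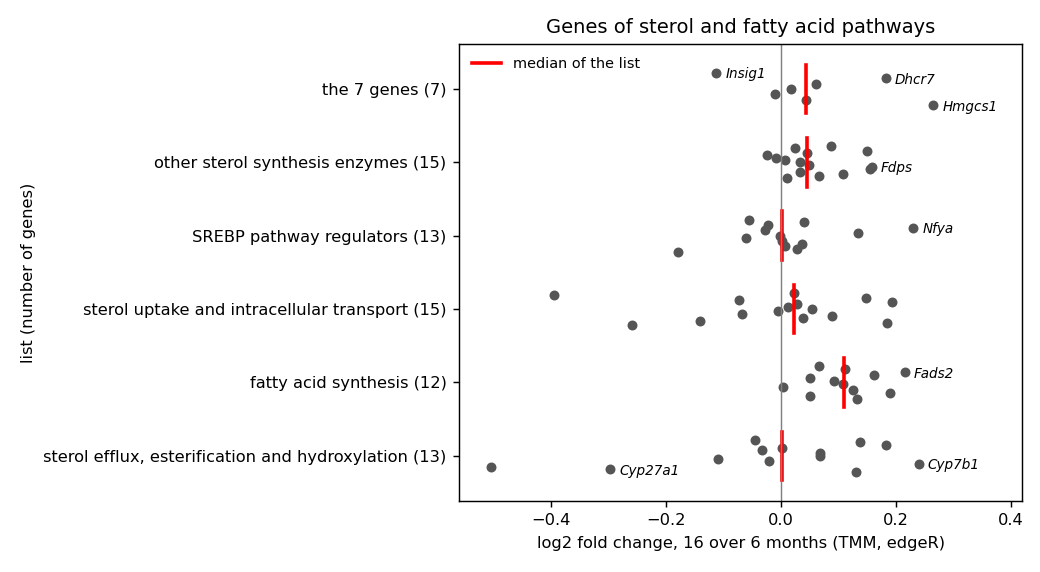
Log2 fold change, 16 over 6 months (horizontal axis), of every gene in 6 lists, with 1 point per gene, the median of each list as a red line and selected genes labelled. The values are after TMM scaling, without the offsets. The points of fatty acid synthesis all lie above 0 with a median of 0.11, and those of the other lists lie on both sides of 0.

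The spread between samples of 1 age followed GC content within the 7 genes. Between replicates 2 and 1 of 16 months the log2 difference was 0.56 in Idi1 (GC content of the longest transcript 41.9%), 0.29 in Hmgcs1 (43.1%) and 0.15 in Cyp51 (46.2%). It was −0.012 in Insig1 (48.2%) and 0.024 in Sqle (48.6%). It was −0.093 in Fdft1 (51.8%) and −0.17 in Dhcr7 (52.8%). Over the 7 genes the difference and the GC content had a Pearson r of −0.958 and a Spearman rho of −0.964, over all 21 enzymes −0.823 and −0.875, and over the 16904 tested genes with a GC content −0.636 and −0.713. Between the same replicate numbers at 6 months the values over the 7 genes were −0.796 and −0.929. They were weaker over all 21 enzymes, at −0.445 and −0.417, and over the 16904 tested genes, at −0.163 and −0.283. These are descriptions across genes of the same pair of libraries, which are not independent of each other. Hmgcs1 was highest in replicate 2 of 16 months, and Dhcr7, with the highest GC content of the 7, in replicate 1.

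**Figure D5:**
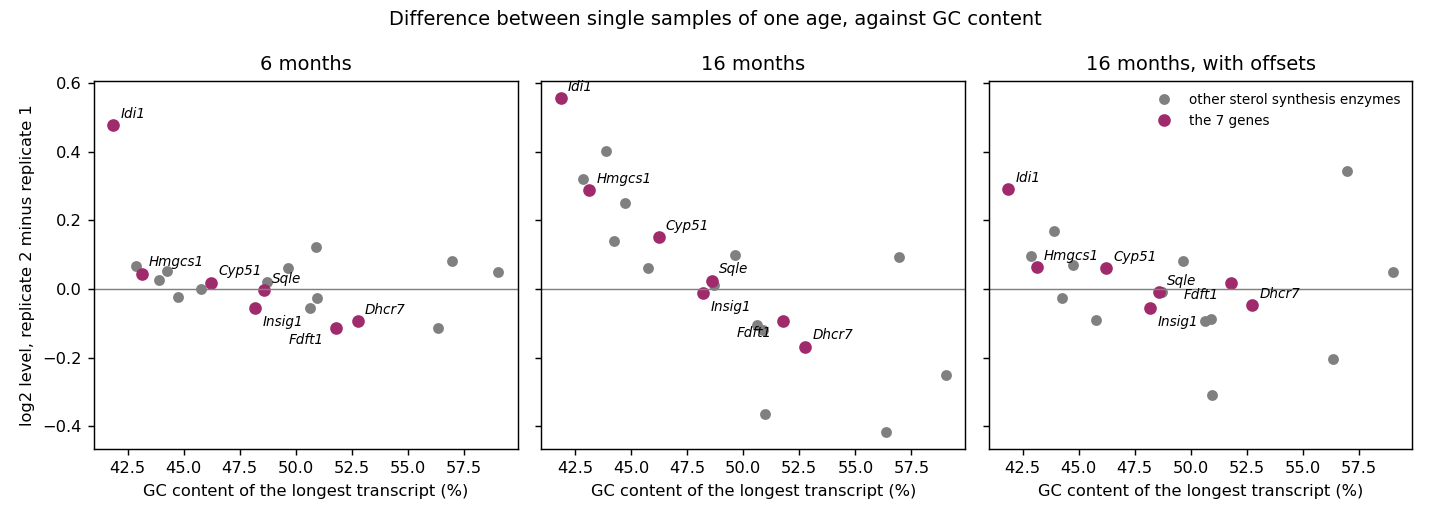
Log2 level in replicate 2 minus that in replicate 1 of 1 age (vertical axis) against the GC content of the longest transcript in percent (horizontal axis), for the 7 genes (purple) and the other enzymes shown (grey), at 6 months, at 16 months and at 16 months with the offsets. At 16 months the 7 genes fall from 0.56 in Idi1 to −0.17 in Dhcr7, and with the offsets their slope is flatter.

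The SD of log2 CPM was larger at 16 months than at 6 months in 6 of the 7 genes, in 17 of the 21 enzymes and in 75.5% of all tested genes. Pairs of the 7 genes did not share 1 pattern over the 6 samples, with r from −0.963 (Idi1 and Fdft1) to 0.928 (Hmgcs1 and Sqle), again over libraries that share the GC trend. The 5 other genes closest to the mean standardized log2 CPM of the 7, over the 6 samples, were 1700102P08Rik (r = 0.996, rho = 1), Vcan (r = 0.995, rho = 0.943), Arhgap6 (r = 0.992, rho = 0.943), Med14 (r = 0.992, rho = 1) and Mex3c (r = 0.986, rho = 0.943). None of the 50 closest among 17113 genes was in the pathway lists. Those lists hold only 15, 13, 15, 12 and 13 genes, so this count is no result about them. The nearest pathway gene was Elovl5 at rank 138.

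Markers of the cell types and regions that a hemisphere can hold were measured beside these genes. The calls of edgeR in each marker list stand beside 1.67% of all tested genes. Summed oligodendrocyte markers, of the cells that use most cholesterol for myelin, were 7087 to 7155 CPM at 6 months. At 16 months they were 7114 to 7168 CPM. Of the 9, 5 had a positive and 4 a negative log2 fold change, from −0.43 to 0.28, and 1, Cldn11, was called, higher. An unadjusted P under 0.05 was found in 3 higher and 2 lower markers, beside 17.4% of all genes. Oligodendrocyte precursor markers were 118 to 122 and 152 to 164 CPM, with Gpr17 and Neu4 of 5 called higher. Astrocyte markers were 6461 to 6824 and 6969 to 7636 CPM, with 1 of 8, Gfap, called, lower. Excitatory neuron markers were 4422 to 4679 and 4590 to 5290 CPM, with 0 of 7 called. GABAergic markers were 853 to 876 and 883 to 936 CPM, with 1 of 7, Pvalb, called, lower. Positive and negative log2 fold changes numbered 5 and 3 among astrocyte markers, and 5 and 2 among excitatory and among GABAergic markers. No marker of any list was at 0 in any sample, those of cortical neurons included.

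Markers of regions next to the cortex were measured too, and their calls stand beside the same 1.67% of all tested genes. Thalamus markers were 60.6 to 63.9 CPM at 6 months and 79.1 to 89.1 CPM at 16 months, with Tcf7l2, Prkcd and Shox2 of 5 called higher. Dentate gyrus markers were 47.8 to 50.5 and 68.2 to 72.0 CPM, with Dsp, Lct and C1ql2 of 4 called higher. Choroid plexus markers were 17.3 to 18.4 and 25.6 to 28.5 CPM, with 1 of 7, Ttr, called, higher. Striatum markers were 453 to 461 and 471 to 498 CPM, and endothelial markers 166 to 168 and 165 to 171 CPM, with 0 of 6 and 0 of 5 called. Microglia markers were 346 to 357 and 357 to 366 CPM, with 1 of 6, Aif1, called, lower. Positive and negative log2 fold changes numbered 3 and 3 among microglia markers and 5 and 2 among choroid plexus markers. The part of these cells and regions in the values of Hmgcs1, Dhcr7 and Insig1 was not tested.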

How the data were processed

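Polyadenylated RNA of 6 cortical samples was sequenced. According to the study, the authors trimmed reads with fastq-mcf, aligned them to mm10 with STAR and counted reads per Ensembl gene with HTSeq. The submitters' processing notes instead name CASAVA 1.8.2, STAR 2.3.0e and featureCounts 1.5.0-p1. The deposited values are raw counts without normalization. The strand setting is not given in the sources used here.

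Of 38355 identifiers, 36602 matched GENCODE on GRCm38. Counts were tested in R 4.3.3 with edgeR 4.0.16 (TMM, filterByExpr, quasi-likelihood test without covariates, Benjamini-Hochberg at 0.05), after the code was tested on simulated data. Log2 CPM used a prior count of 2. DESeq2 1.42.0 was an alternative, as were other normalizations and filters, a robust fit, a replicate block, offsets for GC content and length (medians over 20 bins; 98.7% of the tested genes had both) and leaving out each sample. Near-identical copies were sought with blastn 2.17.0 (97% identity over 100 bases). Figures used matplotlib 3.10.9. Floors of 3 counts cover counting error only.

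The 7 genes and all lists were chosen with earlier results of these data known. Named besides them were Srebf2, Scap, Insig2, the smallest P of each direction per pathway list, called markers and the 5 most similar genes. Some genes of the lists are counted but not reported here. Genes named for a count or for an alternative were chosen after their values were seen.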

Additional observations from a re-analysis of the deposited data

How the results depend on the processing

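Across 15 alternatives, 18 named genes gave 270 log2 fold changes, of which 256 kept their sign, and none of the 15 other sterol enzymes was called in any alternative. Of all genes, 286 were called in the report's fit, 648 with no low-count filter, 468 by DESeq2, 2382 with the GC and length offsets and 48 to 2211 with 1 sample left out (55, 57 and 48 without 6 months replicate 1, 2 and 3, and 995, 2211 and 58 without those of 16 months). Of the 7 genes, 0 were called in the report's fit, 1 with no filter (Hmgcs1), 1 by DESeq2 (Hmgcs1), 2 with the offsets (Hmgcs1 and Dhcr7) and 0 to 2 with 1 sample left out. The other normalizations, the filter of at least 10 counts and the robust fit called 0 of the 7. Leave-one-out fits called 0 to 2 of the SREBP regulators, 0 to 4 of the uptake genes, 0 to 2 of the fatty acid genes and 0 to 1 of the efflux genes, and the offsets called 3, 5, 4 and 4. The 1 called efflux gene and the highest counts of uptake and fatty acid genes came without 16 months replicate 2, and the 2 regulators without 16 months replicate 1. Signs turned in leave-one-out fits of Idi1 (−0.14 to 0.16), Fdft1 (−0.037 to 0.019), Srebf2 (−0.085 to 0.12), Scap (−0.099 to 0.099) and Insig2 (−0.016 to 0.068). With the offsets Srebf2 had −0.035 and Scap −0.045, and Scap had −0.0070 with upper quartile scaling. The cause was not tested. The adjusted P of Hmgcs1 (edgeR or DESeq2) ranged from 1.04e-05 to 0.334, that of Dhcr7 from 0.0167 to 0.520 and that of Insig1 from 0.0353 to 0.638. With 95 to 151 counts per sample, Idi1 was measured least precisely.

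The ages share replicate numbers. Deviations of same-numbered samples had r = 0.180, 0.0958 and 0.0351 across genes for numbers 1, 2 and 3, and 0.110 pooled. Samples of different ages are different mice, and the labels do not say whether a shared number marks a shared batch. The numbers were therefore not taken to pair the samples in the report's fit, and fits with the replicate block are given beside it. Replicate 1 and 2 of 16 months correlated best with the same number at 6 months, and replicate 3 with number 2, as a hint from the data only. With the replicate block 783 genes were called, among them 1 of the 7 (Hmgcs1), 1 SREBP regulator, 1 uptake gene, 1 fatty acid gene and 0 efflux genes. With the block and the offsets 3130 genes were called, among them 3 of the 7, 3 SREBP regulators, 7 uptake genes, 5 fatty acid genes and 4 efflux genes, and Srebf2 had −0.035 and Scap −0.044.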
